A study of Caenorhabditis elegans with 6 samples.

Results

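Superoxide dismutases and catalases are the enzymes that clear superoxide and hydrogen peroxide, and the worm genome names 8 genes for them, sod-1 to sod-5 and ctl-1 to ctl-3. They were taken by gene name from the deposited table and make up 8 of its 46926 genes. RNA was taken from whole N2 worms, the wild-type Caenorhabditis elegans strain, grown to late L4 or young adult. Animals stood for 5 hours in NGM buffer with heat-treated OP50 bacteria and either 25 µM chaetocin, a fungal metabolite known to inhibit histone lysine methyltransferases (3 libraries), or the vehicle DMSO (3 libraries). The labels number the libraries of each group as biological replicates 1 to 3, which is the numbering used here, while the titles number the DMSO libraries 1, 3 and 4. Since they do not state that each came from its own culture, the p-values reflect only how these libraries vary, which may be technical.

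Superoxide leaks from the respiratory chain and is also made by oxidases. A superoxide dismutase turns it into oxygen and hydrogen peroxide, with copper and zinc or with manganese in its active site. A catalase, which carries heme, splits the hydrogen peroxide into water and oxygen. In the worm, sod-1 is known as the main cytosolic copper/zinc enzyme and sod-5 as a minor one linked to the dauer larva, while sod-4 encodes an extracellular enzyme. The mitochondrial manganese enzymes are sod-2, known as the constitutive gene, and sod-3, a widely used readout of the insulin-pathway transcription factor DAF-16. ctl-2 is known as the peroxisomal catalase and ctl-1 as a cytosolic one.

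By limma on FPKM, 2 of the 8 genes were slightly lower in chaetocin-treated animals, the catalase genes ctl-1 and ctl-2, and none was called higher. The ctl-1 call was lost in 7 and the ctl-2 call in 6 of 17 alternative fits, and the authors' deposited table calls sod-1 lower and neither catalase gene. ctl-1 fell by 11.4% and ctl-2 fell by 11.7% in mean level. The mean of sod-1 was lower by a similar amount, and that of sod-3 by more in relative terms, and both missed the limma threshold. sod-2, sod-4 and ctl-3 were not called and overlapped between the groups, and sod-5 was too low to test. Whole animals were measured, so fewer cells of a type and less RNA per cell cannot be told apart.

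Levels are FPKM, a fragment count scaled by transcript length and library size, further scaled between libraries. The test was limma on log2(FPKM + 0.1), adjusted by the Benjamini-Hochberg method over all 15213 genes that reached 0.5 FPKM in at least 3 libraries. A gene was called at an adjusted p under 0.05, which held for 8.49% of the tested genes (5.48% higher and 3.02% lower with chaetocin). Of the 8 genes 7 were tested, and 2 of them were called, both lower. None was called higher (limma). At an unadjusted p under 0.05, which 20.5% of all tested genes had, 4 of the 7 were lower and 0 higher. The median log2 fold change of the 7 was -0.17, beside -0.004 over all tested genes.

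Columns summed to between 1232966 and 1326067 FPKM, with 18747 to 18933 genes above 0. Ribosomal RNA took 0.755 to 4.13% of FPKM in the chaetocin libraries and 1.26 to 2.77% in the DMSO libraries. Depth per library is unknown, since the tables hold no counts. The authors' deposited table gives a mean normalized count per gene over the libraries, and it shows how unequal the depth behind the 8 genes is. It was 7809 for sod-1, 5916 for ctl-2, 5340 for sod-2, 3931 for ctl-1 and 2788 for ctl-3. It was 518 for sod-4, 42.8 for sod-3 and 8.64 for sod-5.

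The order of levels per transcript length was sod-1, sod-2, ctl-2, ctl-1, ctl-3, sod-4, sod-3 and sod-5. It held in all 6 libraries, and no pair of neighbours in this order overlapped in level across the 6. The main cytosolic enzyme gene sod-1 stood 1.72-fold above sod-2, and sod-4 stood 12.9-fold above sod-3. The mean over the 6 libraries was 377 FPKM for sod-1 and 0.365 FPKM for sod-5.

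**Figure D1:**
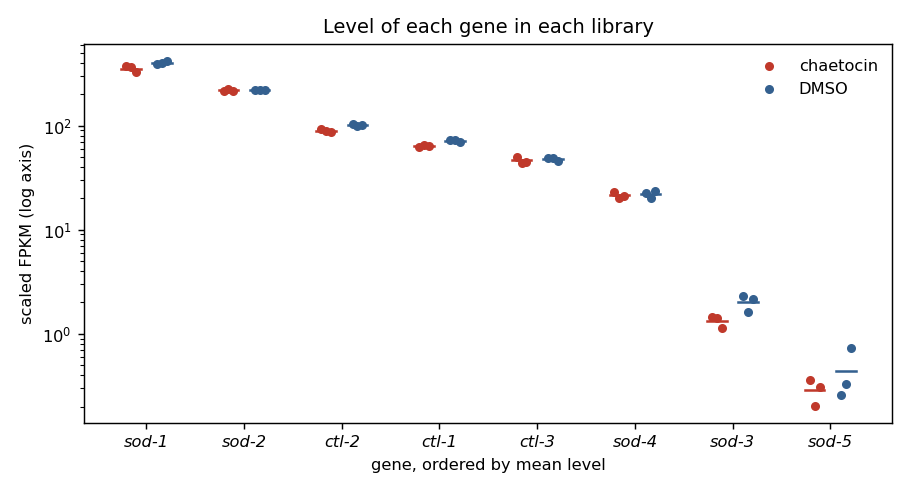
Scaled FPKM on a log axis of each superoxide dismutase and catalase gene in the 3 chaetocin and 3 DMSO libraries (points; lines are group means). sod-1 lies highest, between 324 and 415 FPKM, and sod-5 lowest, with no library above 0.724 FPKM.

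The catalase genes lie next to each other on the minus strand of chromosome II (WBcel235). ctl-2 spans 14299556 to 14302027, ctl-1 spans 14303568 to 14306260 and ctl-3 spans 14307798 to 14310779, with gaps of 1540 and 1537 bases. The annotation gives proteins of 500, 497 and 512 amino acids for ctl-2, ctl-1 and the longer ctl-3 transcript. They are close relatives, and fragments that match more than 1 gene are divided among them by estimation, so the split between the 3 genes is less certain than their sum. ctl-2 also shares 65 exon bases with Y54G11A.7 on the other strand, a gene at 19.4 to 31.02 FPKM as deposited.

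ctl-2, the peroxisomal catalase gene, had 91.8, 89.3 and 86.9 FPKM in the chaetocin libraries, against 103, 99.5 and 101 FPKM in the DMSO libraries. All 3 chaetocin libraries lay below all 3 DMSO libraries. The group means were 89.3 ± 2.41 FPKM with chaetocin and 101 ± 1.80 FPKM with DMSO (SD, n = 3 each). The log2 fold change was -0.18 ± 0.03 (SE), and ctl-2 passed the limma test at an adjusted p of 0.0198. Of all tested genes, 35.4% had a larger log2 fold change in size, so this was a small difference measured with small spread.

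ctl-1 had 61.95, 65.3 and 63.1 FPKM in the chaetocin libraries, against 72.2, 72.9 and 69.8 FPKM in the DMSO libraries. Here too all chaetocin libraries were the lower ones. This held for 4 of the 7 tested members (sod-1, sod-3, ctl-1 and ctl-2) and for 12.2% of all tested genes, and the groups did not overlap in either direction in 26.3%. The means were 63.5 ± 1.72 FPKM with chaetocin and 71.6 ± 1.62 FPKM with DMSO (SD, n = 3 each). The log2 fold change was -0.17 ± 0.04 (SE; limma, adjusted p = 0.0306).

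The ctl-2 call depended on 4 of the 6 libraries and the ctl-1 call on 5. The ctl-2 call was lost without chaetocin replicate 2 or 3 and without DMSO replicate 1 or 2, at limma adjusted p of 0.0768, 0.0693, 0.08295 and 0.0558. The ctl-1 call was lost without chaetocin replicate 1, 2 or 3 and without DMSO replicate 1 or 2, at adjusted p of 0.118, 0.0532, 0.1004, 0.1102 and 0.116. The log2 fold change of ctl-1 stayed between -0.19 and -0.16 and that of ctl-2 between -0.199 and -0.16 in these fits.

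ctl-3, the least abundant catalase gene, had 50.1, 43.9 and 44.7 FPKM in the chaetocin libraries, against 48.8, 49.2 and 45.3 FPKM in the DMSO libraries. The groups overlapped, and chaetocin replicate 1 was the highest of the 6. Its log2 fold change was -0.05 ± 0.06, with a 95% interval of -0.198 to 0.101 (limma, adjusted p = 0.726). The interval includes the values of ctl-1 and ctl-2, and whether ctl-3 differed from them was not tested. Its second transcript, Y54G11A.13b.1, was listed at 0 in all 6 libraries.

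Summed over the 3 genes, catalase RNA stood at 204, 198.5 and 195 FPKM in the chaetocin libraries, against 224, 222 and 216 FPKM in the DMSO libraries. The sums of the groups did not overlap, which held for 26.3% of single tested genes in either direction, and the ratio of their means was 0.9025. The sum depends little on how shared fragments were divided, since the main transcripts of the 3 genes are similar in length (1554, 1611 and 1631 bases for ctl-1, ctl-2 and ctl-3). ctl-2 made up 44.6 to 45.02% of the sum with chaetocin and 44.9 to 46.7% with DMSO, and ctl-1 made up 30.4 to 32.9% with chaetocin and 32.2 to 32.9% with DMSO. These shares overlapped between the groups.

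**Figure D2:**
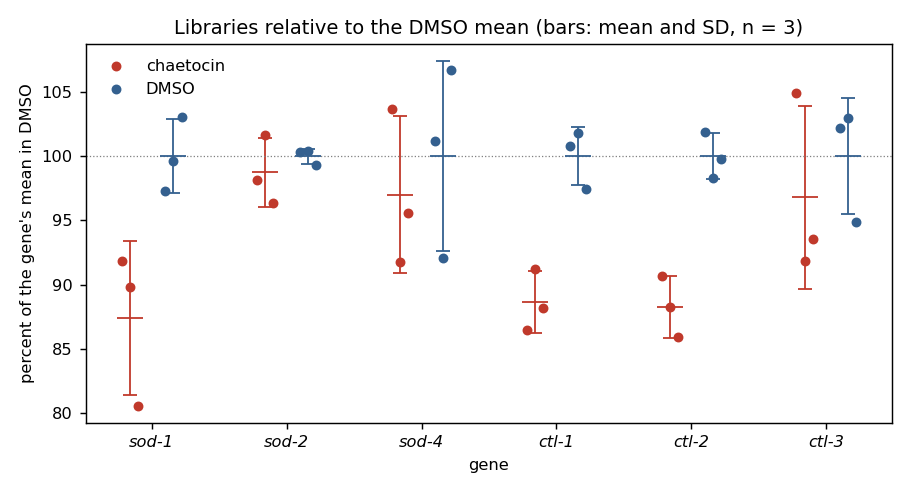
Level of each gene in each library as a percentage of that gene's mean in DMSO (points are libraries; bars are the mean and SD of 3), for the genes above 20 FPKM. The 3 chaetocin libraries lie below the 3 DMSO libraries for sod-1, ctl-1 and ctl-2, and the groups overlap for sod-2, sod-4 and ctl-3.

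Among the copper/zinc enzymes, sod-1 (chromosome II, 6972706 to 6973887, WBcel235) had 369.5, 362 and 324 FPKM in the chaetocin libraries, against 391.6, 401 and 415 FPKM in the DMSO libraries. The groups did not overlap, and chaetocin replicate 3 was the lowest. The means were 352 ± 24.1 FPKM with chaetocin and 402 ± 11.7 FPKM with DMSO (SD, n = 3 each). The log2 fold change of -0.196 ± 0.054 (SE) had a 95% interval of -0.325 to -0.066 and missed the threshold after adjustment (limma, adjusted p = 0.0861). The size of the difference rests partly on chaetocin replicate 3: without it the log2 fold change was -0.14. All of the sod-1 level lay in transcript C15F1.7a.1, which encodes 180 amino acids, and C15F1.7b.1 was listed at 0 in all 6 libraries.

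sod-4 (chromosome III, 9496884 to 9500375), the extracellular enzyme gene, had 22.9, 20.3 and 21.1 FPKM in the chaetocin libraries, against 22.35, 20.35 and 23.6 FPKM in the DMSO libraries. The groups overlapped over nearly their whole range. Its log2 fold change was -0.04 ± 0.07, with a 95% interval of -0.22 to 0.13 (limma, adjusted p = 0.798), and its sign turned without DMSO replicate 3 (0.005).

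The sod-4 level was carried mostly by transcript F55H2.1a.1, which encodes 176 amino acids. It took 78.6 to 86.4% of the gene's FPKM with chaetocin and 86.4 to 90.9% with DMSO. The transcript F55H2.1a.2 has the same coding length and an additional exon. It was listed at 1.39, 1.79 and 1.22 FPKM in the chaetocin libraries, against 0.593, 0.131 and 0 FPKM in the DMSO libraries. The groups did not overlap, but the difference missed the threshold over 21002 tested transcripts, of which 4.68% were called (limma, adjusted p = 0.137). The share of transcripts without overlap was not counted, and among tested genes it was 26.3% in either direction. F55H2.1a.2 passed in 1 of 9 alternative fits, the one without DMSO replicate 1, its highest DMSO library (limma, adjusted p = 0.0424). Over these fits its log2 fold change ran from 1.48 to 3.35 and its limma adjusted p from 0.0424 to 0.317. The chaetocin libraries, where it is high, carry it past the filter on their own, so the pass is no separate support. F55H2.1b.1, which encodes 221 amino acids, had 1.37, 2.54 and 1.97 FPKM with chaetocin, against 1.96, 2.46 and 2.03 FPKM with DMSO, and the groups overlapped. The gene's far end shares 175 exon bases with ctr-9 on the other strand, a gene at 85.0 to 90.3 FPKM as deposited, and the sources used here do not give whether fragments were counted by strand.

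**Figure D3:**
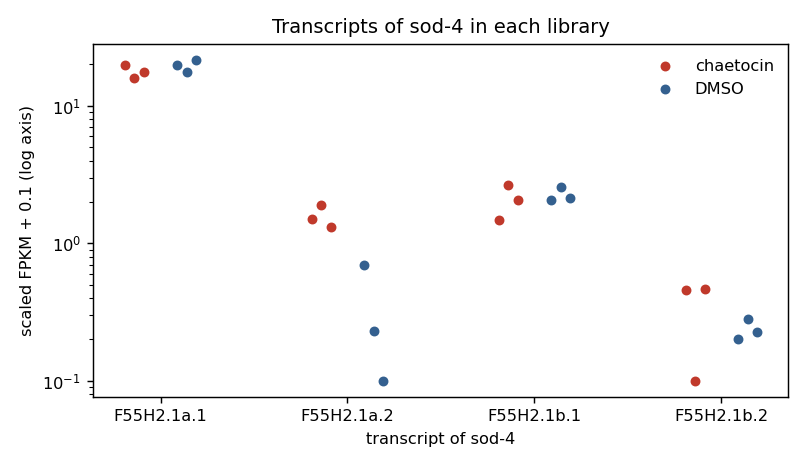
Scaled FPKM + 0.1 on a log axis of the 4 annotated transcripts of sod-4 in the 3 chaetocin and 3 DMSO libraries (points). F55H2.1a.1 carries most of the level in both groups, and F55H2.1a.2 is higher in each chaetocin library (1.22 to 1.79 FPKM) than in any DMSO library (0 to 0.593 FPKM).

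sod-5 (chromosome II, 4417633 to 4419130) lay below the filter. It was listed at 0.358, 0.205 and 0.308 FPKM in the chaetocin libraries, against 0.261, 0.331 and 0.724 FPKM in the DMSO libraries. The groups overlapped, with DMSO replicate 3 the highest. In a fit with no filter its log2 fold change was -0.39 ± 0.37 (limma, adjusted p = 0.658), which did not pass the threshold.

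Of the manganese enzymes, sod-2 (chromosome I, 8434550 to 8435807) had 217, 224.5 and 213 FPKM in the chaetocin libraries, against 221.5, 222 and 219 FPKM in the DMSO libraries. The groups overlapped, and the SD was 5.95 FPKM with chaetocin and 1.285 FPKM with DMSO. Its log2 fold change of -0.02 ± 0.03 had the narrowest interval of the 7 tested genes, -0.09 to 0.05 (limma, adjusted p = 0.781). sod-2 lies inside the span of dpt-1 on the other strand, but only 21 exon bases are shared.

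sod-3 (chromosome X, 17092753 to 17094306) had 1.44, 1.41 and 1.14 FPKM in the chaetocin libraries, against 2.302, 1.64 and 2.16 FPKM in the DMSO libraries. All chaetocin libraries lay below all DMSO libraries, and the ratio of the means was 0.655. On the log2(FPKM + 0.1) scale, which understates changes of low genes, the log2 fold change was -0.57 ± 0.18 with a 95% interval of -1.01 to -0.13. It missed the threshold (limma, adjusted p = 0.138), and no alternative setting or left-out library made it pass (adjusted p from 0.106 to 0.356). sod-3 shares 24 exon bases with lido-1 (5.44 to 7.16 FPKM as deposited) and 65 with C08A9.3 (0 to 0.01 FPKM), both on the other strand. It stood at 0.537 to 0.666% of the sod-2 level with chaetocin and at 0.738 to 1.04% with DMSO.

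The sod-1 to sod-2 ratio within a library was 1.705, 1.61 and 1.52 in the chaetocin libraries, against 1.77, 1.81 and 1.89 in the DMSO libraries. The groups did not overlap in this ratio, which does not depend on the scaling between libraries. It rests on the same sod-1 values, which did not overlap either, so it is no separate support. How often other gene pairs separate in this way was not counted, and single tested genes did so in 26.3%. Whether the changes of sod-1 and sod-2 differ was not tested. Summed FPKM of the 5 superoxide dismutase genes was 611, 608 and 559.8 with chaetocin, against 638, 645 and 661 with DMSO, and sod-1 made up 57.95 to 60.5% of it with chaetocin and 61.4 to 62.8% with DMSO.

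In the authors' deposited table, whose values rest on counts and whose p-values were read as adjusted, 9.06% of 16062 coding genes passed the threshold, and 3.49% were lower with chaetocin. Its log2 fold changes, turned to chaetocin over DMSO, were -0.196 for sod-1, -0.18 for ctl-2, -0.18 for ctl-1 and -0.60 for sod-3. These sizes are close to the limma values on FPKM. The calls differ: in the authors' deposited table sod-1 passed (p = 0.0122) while ctl-2 (p = 0.0566) and ctl-1 (p = 0.109) did not. sod-3 (p = 0.273), ctl-3 (p = 0.854), sod-4 (p = 0.928), sod-2 (p = 0.934) and sod-5 (p = 0.814) did not pass there either. No gene of the set was called by both tests. The authors' deposited table gives a standard error of 0.065 for ctl-2 and 0.059 for sod-1, and limma gave 0.033 for ctl-2 and 0.054 for sod-1.

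**Figure D4:**
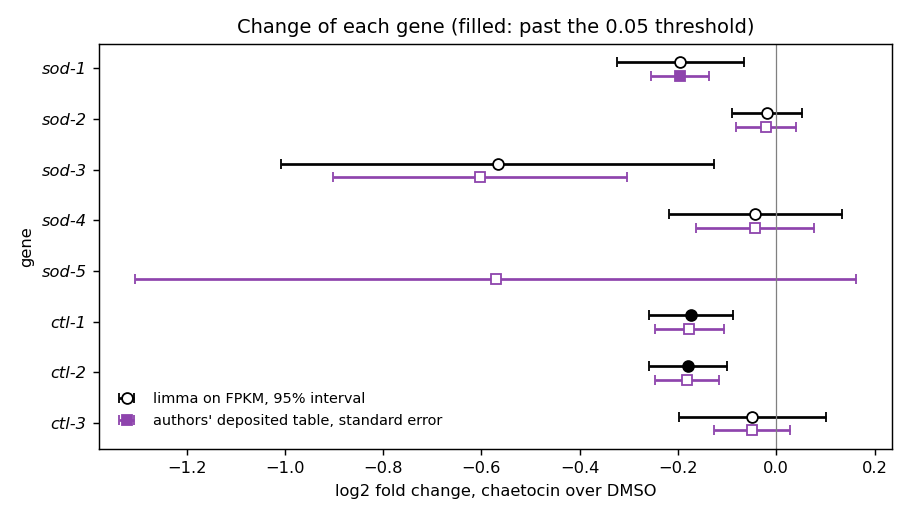
Log2 fold change of each gene, chaetocin over DMSO, from limma on FPKM (circles, 95% interval) and from the authors' deposited table (squares, standard error); filled symbols passed the 0.05 threshold, and sod-5 was below the limma filter. limma called ctl-1 and ctl-2 and the deposited table called sod-1, and the fold changes of each tested gene lie close together in both.

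By the distance between centred log2 profiles over the 6 libraries, the tested genes at 1 FPKM or more with the profile most like ctl-1 were rab-14 (distance 0.0352), miz-1 (0.0475) and C50E3.13 (0.05004). Those most like ctl-2 were R11A8.1 (0.0525), rhr-1 (0.0627) and mup-4 (0.0637). These 6 genes were picked for likeness to called genes over the same 6 libraries, so their lower levels with chaetocin follow from the choice. Among them rhr-1, named as a Rhesus-related transporter, had a log2 fold change of -0.21 ± 0.04 (limma), which is no separate support.

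Genes that make or remove hydrogen peroxide beside catalase were counted from lists chosen with earlier results of these data known. Of the lists, the largest share of calls, 72.7%, was among 11 genes listed under peroxisomal beta-oxidation, which include a D-amino acid oxidase gene. The acyl-CoA oxidases of this pathway produce the hydrogen peroxide that peroxisomal catalase removes. The list of DAF-16 targets followed with 66.7%, and 8.49% of all tested genes were called. Of the 11 genes, 7 were called lower and 1 higher. acox-1.5 had 5.37, 5.20 and 6.06 FPKM with chaetocin, against 11.3, 11.7 and 10.6 FPKM with DMSO (log2 fold change -1.003 ± 0.085; limma, adjusted p = 0.000574). acox-3, acox-1.6 and acox-1.4 had log2 fold changes of -0.52, -0.46 and -0.39, while acox-1.3 had one of 0.77. The acox-1 genes resemble each other, so fragments may be shared among them. The number of lower calls was 4 without chaetocin replicate 1, 3 without chaetocin replicate 2, 3 without DMSO replicate 1 and 4 without DMSO replicate 2. The acox-1.4 call was lost without chaetocin replicate 2 or 3 and without DMSO replicate 1 or 2 (limma, adjusted p up to 0.055).

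Of 16 genes of peroxisome biogenesis, 1 was called (6.25%, beside 8.49% of all tested genes). prx-12, a peroxin gene, had 7.13, 7.16 and 6.96 FPKM with chaetocin, against 5.48, 5.98 and 5.57 FPKM with DMSO (limma, adjusted p = 0.0493), and leaving out any 1 library ended the call (adjusted p from 0.0834 to 0.164).

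Of 22 genes of the peroxiredoxin, glutathione peroxidase and thioredoxin systems, which remove peroxides by thiols, 1 was called higher and 1 lower. This share of 9.09% is near the 8.49% of all tested genes. The glutathione peroxidase gene gpx-1 had 174.7, 195.7 and 179.9 FPKM with chaetocin, against 27.03, 26.6 and 32.5 FPKM with DMSO, 6.39-fold higher (limma, adjusted p = 9.18e-06). The sestrin gene sesn-1 had 14.1, 14.1 and 14.3 FPKM with chaetocin, against 23.9, 23.3 and 21.4 FPKM with DMSO (limma, adjusted p = 0.000499). prdx-2, the main cytosolic peroxiredoxin gene, named here for its role, averaged 1106 ± 9.97 FPKM with chaetocin and 1133 ± 19.7 FPKM with DMSO (SD, n = 3 each; limma, adjusted p = 0.566).

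Of 15 genes of the respiratory chain and its surroundings, the main mitochondrial source of superoxide, 0 were called and 0 had an unadjusted p under 0.05 (limma). Their log2 fold changes lay between -0.097 and 0.053. Of 8 tested genes of heme peroxidases, dual oxidase and its partner proteins, 0 were called by limma. An unadjusted p under 0.05 was found for 2, both lower, a share near the 20.5% of all tested genes.

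The metals and the heme that these enzymes carry have their own supply genes. Of 11 tested genes of copper, manganese and zinc handling, 3 were called higher and 1 lower (36.4%, beside 8.49% of all tested genes). The copper importer gene chca-1, listed as F58G6.9, had 54.4, 61.4 and 57.6 FPKM with chaetocin, against 1.48, 2.16 and 4.47 FPKM with DMSO (limma, adjusted p = 0.000407). The copper-transporting ATPase gene cua-1 had 35.1, 35.6 and 38.6 FPKM with chaetocin, against 26.9, 26.5 and 24.3 FPKM with DMSO (limma, adjusted p = 0.0029). The zinc transporter family gene zipt-2.3 had 2.41, 2.44 and 2.34 FPKM with chaetocin, against 0.141, 0.151 and 0.186 FPKM with DMSO. Its log2 fold change was 3.27 ± 0.19 and ran from 1.55 to 3.84 over the 17 alternative fits. The chaetocin libraries, where zipt-2.3 is high, carry it past the filter on their own, so its higher call is no separate support. smf-3, an importer of manganese and other divalent metals, had 3.48, 2.94 and 3.42 FPKM with chaetocin, against 7.05, 7.16 and 6.72 FPKM with DMSO (limma, adjusted p = 0.000824). A second gene was called lower without DMSO replicate 1.

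Of 8 tested heme genes 3 were called, all higher (37.5%, beside 8.49% of all tested genes). hrg-7, known for a secreted signal of heme status between tissues, had 242, 250.1 and 251 FPKM with chaetocin, against 47.5, 49.3 and 50.7 FPKM with DMSO, and its limma adjusted p was 8.61e-07. hrg-3, which carries maternal heme to embryos, had a log2 fold change of 1.13 ± 0.18, and the intestinal heme importer gene hrg-4 had one of 0.52 ± 0.11. The hrg-4 call was lost without chaetocin replicate 1, 2 or 3 and without DMSO replicate 1 (limma, adjusted p up to 0.121).

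**Figure D5:**
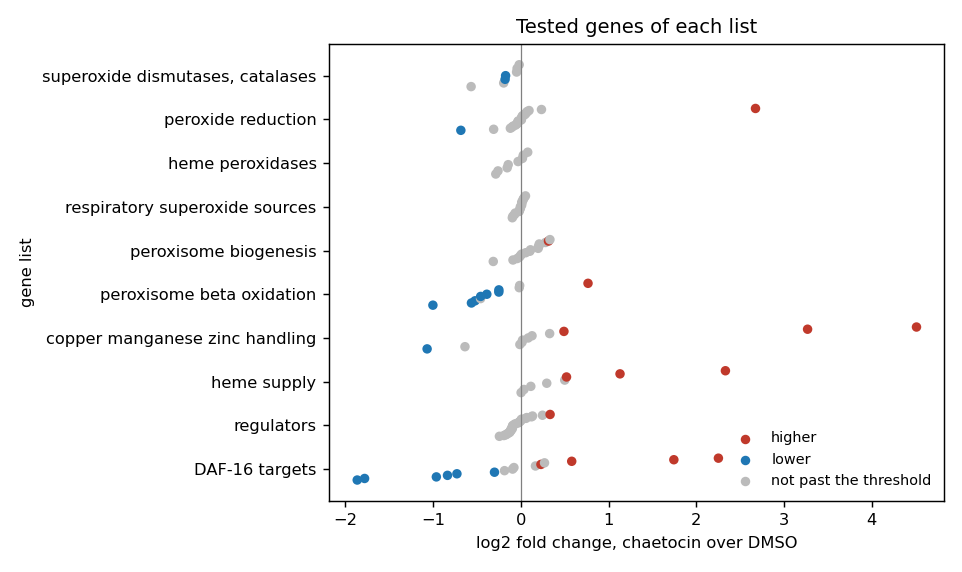
Log2 fold change, chaetocin over DMSO, of the tested genes of each list (points; red called higher, blue called lower, grey not past the threshold). The superoxide dismutase and catalase genes lie between -0.57 and -0.02, whereas beta-oxidation genes reach -1.003 and genes of metal handling 4.51.

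Among 29 regulators of these genes, covering insulin signalling, SKN-1 and stress kinases, 1 was called (3.45%, beside 8.49% of all tested genes). The insulin-pathway kinase gene akt-2 had 16.6, 16.7 and 17.2 FPKM with chaetocin, against 13.5, 12.8 and 13.75 FPKM with DMSO (limma, adjusted p = 0.0101). Without DMSO replicate 3 the count was 2 higher and 4 lower. daf-16, named here for its role, had 74.35, 73.5 and 78.2 FPKM with chaetocin, against 88.5, 88.2 and 76.1 FPKM with DMSO, and the groups overlapped (limma, adjusted p = 0.238).

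Of 15 tested DAF-16 targets outside the 8 genes, 4 were called higher and 6 lower (66.7%, beside 8.49% of all tested genes). mtl-1, dod-3, asah-1 and lys-7 had log2 fold changes of -1.87, -1.78, -0.96 and -0.84, and the ferritin gene ftn-1 had one of 1.75. The number of higher calls was 2 without chaetocin replicate 1, 1 without chaetocin replicate 2, 1 without chaetocin replicate 3 and 2 without DMSO replicate 1.

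Marker genes of tissues were counted for shifts in tissue RNA between the groups. Of 8 tested genes listed as intestinal markers, 4 were called higher and 0 lower (50%, beside 8.49% of all tested genes). The summed level of the 8 was 670 to 692 FPKM with chaetocin and 434 to 452 FPKM with DMSO. The actin gene act-5 (log2 fold change 2.01) and the phosphatase gene pho-1 (2.04) rose most. The sum mostly follows act-5, with a mean of 243.5 FPKM with chaetocin and 60.8 FPKM with DMSO. The intestinal master regulator gene elt-2 had 10.3, 10.6 and 10.2 FPKM with chaetocin, against 11.3, 11.1 and 10.9 FPKM with DMSO (limma, adjusted p = 0.3999). The other uncalled genes of this list, vha-6, elt-7 and gut-2, had log2 fold changes of -0.135, -0.049 and 0.017. Whether gut-2 is particular to the intestine was not tested. Its mean of 123.8 FPKM with chaetocin and 122.3 FPKM with DMSO is part of the sum. Of the markers of muscle (7), pharynx (6), epidermis (8), neurons (9), germline (10), sperm (8) and coelomocytes (3), 0 were called by limma, and 5 of these 51 had an unadjusted p under 0.05, beside the 20.5% of all tested genes. No tested marker could be at 0 in all libraries, since the filter asks for 0.5 FPKM in at least 3. The part of tissue composition in the lower ctl-1 and ctl-2 levels was not tested.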

How the data were processed

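Per the submitters' processing notes, the tools named are Trimmomatic 0.36, RSEM 1.3.1 and STAR 2.7.9a, among others, and the build is WBcel235. The annotation release and the strand setting are not given in the sources used here. The authors deposited FPKM per gene and per transcript for each library. The unit was read from the values: column sums exceed what TPM allows, and the authors' mean normalized count over FPKM rose with length (r = 0.915 over 12339 genes, not independent replicates). A further table deposited by the authors gives log2 fold changes with DMSO on top and a p-value for 16062 coding genes. Its sign was turned here, and its p-values were read as Benjamini-Hochberg adjusted.

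Scaling between libraries used a trimmed mean of log ratios without weights (30% of ratios and 5% of means trimmed at each end, factors 0.977 to 1.02). Genes that reached 0.5 FPKM in 3 or more libraries entered limma 3.58.1 (R 4.3.3) on log2(FPKM + 0.1), with variance moderated along the mean level. Tests were 2-sided with a threshold of 0.05. Transcripts were fitted in the same way with the same factors. The functions were tested on simulated data, whose smallest changes were larger than those of ctl-1 and ctl-2, so calls of that size were not covered. Positions came from the Ensembl annotation of WBcel235, which holds all 46926 gene identifiers. With FPKM and no counts, no counting interval is given.

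The members, gene lists, tests and alternatives were chosen with earlier results of these data known. Named genes are the 8 members, up to 5 called genes per list, the 3 nearest profiles of each called member, and tissue markers where called. Genes named outside this rule, for their role (prdx-2, daf-16, elt-2) or as uncalled genes of the intestinal list (vha-6, elt-7, gut-2), were chosen after their values were seen. Of the 3 listed symbols not in the table, 1 was matched by its identifier; the other two (dod-8, opt-2) were left out.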

Additional observations from a re-analysis of the deposited data

How the results depend on the processing

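The 17 alternatives changed the pseudocount, filter, scaling, variance model, gene set or replicate block, or left out a library. sod-2, sod-3 and ctl-3 kept their direction and stayed uncalled in all 17. The sod-4 log2 fold change turned to 0.005374 without DMSO replicate 3. ctl-1 was called in 10 and ctl-2 in 11 of the 17, with log2 fold changes of -0.205 to -0.157 and -0.211 to -0.160. Both calls were lost without the variance trend, at limma log2 fold changes of -0.174 and -0.18 (adjusted p = 0.0905 and 0.0762; range over all alternatives 0.00989 to 0.118 and 0.0172 to 0.08295), so 0 members were called. sod-1 was called with equal column sums without ribosomal RNA (-0.227, limma adjusted p = 0.00968; range 0.00968 to 0.208), where the log2 ratio of summed catalase RNA was -0.18 beside -0.148.

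With the replicate number as a block, 0 members and 0 member transcripts were called, ctl-1 (-0.174) and ctl-2 (-0.18) had limma adjusted p of 0.1007 and 0.0758, and 257 genes in all were lower beside 459. Same-numbered libraries correlated at 0.106, 0.0668 and -0.0264 in their deviations from the group means, and differently numbered ones at -0.15 to 0.078. These values overlap and do not settle whether the numbers mark pairs. The main fit did not take them as pairs. The block and these correlations use the labelled replicate numbers, and the titles number the DMSO libraries 1, 3 and 4, so another matching of libraries is possible and was not run. Leaving out a library gave 0 to 2 called members, 0 to 1 called member transcripts, 280 to 522 lower genes, 19 to 32 called listed genes with 9 to 15 higher, and log2 fold changes of -0.195 to -0.157 for ctl-1, -0.199 to -0.16 for ctl-2 and -0.1003 to 0.005374 for sod-4. Such fits hold fewer samples. The single ctl-2 transcript call (main adjusted p = 0.0408) was lost with no filter, leaving 0 member transcripts called, and in every leave-out fit; transcript F55H2.1b.1 of sod-4 turned to 0.062 without chaetocin replicate 1 (lowest value -0.36, without chaetocin replicate 2). Other causes were not tested. sod-3 and sod-5 rest on few fragments, with mean normalized counts of 42.8 and 8.64 in the authors' deposited table.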
